A study of Homo sapiens with 12 samples.

Results

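In MDA-MB-231 cells, a human triple-negative breast cancer line, 49 of 26364 rows of the gene count table were low in 3 groups of wells and higher when dexamethasone and SH4-54 were given together. Dexamethasone (DEX) is a synthetic agonist of the glucocorticoid receptor, and SH4-54 is a synthetic compound made to block the transcription factors STAT3 and STAT5. Wells received 1 µM DEX with 8 µM SH4-54, 8 µM SH4-54 alone, 1 µM DEX alone, or no drug, each for 24 h, with 3 wells a group and 12 in all. The wells are replicate cultures of a single line, so every p-value rests on spread among wells, which may be technical. Whether the no-drug wells received a vehicle is not stated in the labels.

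The 49 genes were selected on the measured values themselves, as CPM, a gene's reads per 1000000 reads of its library. A gene had a mean below 1 CPM with SH4-54, with DEX and with no drug. Its mean with both compounds was at least 0.3 CPM and at least 3 times the highest other group mean, and each well with both compounds lay above every other well. Of the 52 rows that met this rule, EGR2, EGR3 and NR4A3 were left out because EGR, NR4A and LINC symbols were set aside. The higher level with both compounds is therefore how the genes were chosen, and the values that show it are given as a description with no test. Over the whole table, each well with both compounds lay above every other well for 4.24% of 21890 rows with a read, and for 3.88% of 9220 rows whose other group means were all below 1 CPM. The same rule applied to SH4-54 or to DEX in the place of the combination found 0 genes. Wells with both compounds also received each of them, so a gene raised by 1 compound and also high there fails that rule. The 0 therefore does not show that a single compound raised no low gene. Applied to no drug, the rule found 1 gene, OVCH1-AS1, which was singled out after its values were seen.

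The genes did not appear with both compounds alone. All 49 had a read in at least 1 SH4-54 well, 33 in at least 1 DEX well and 41 in at least 1 no-drug well, and 0 were at 0 reads in all 9 other wells. They are therefore called low genes higher with both compounds. In the 6 DEX and no-drug wells, 5 members had no read: CHRNA4, RBBP8NL, IL31, FOXJ1 and FLT4. With 172133700 reads in those 6 wells, a count of 0 allows up to 3 counts, or 0.0174 CPM, for counting error only.

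Genes at such levels give a handful of reads per library. Heat shock proteins are chaperones that bind unfolded proteins, and the inducible ones are switched on by the factor HSF1 at heat shock elements, which are inverted repeats of the letters GAA. Immediate-early genes are switched on within minutes of a signal without new protein synthesis, by factors already present such as SRF and CREB. Some of them encode FOS and JUN proteins, which pair as AP-1 and act on later genes. In a bulk sample, fewer cells that express a gene and less RNA per cell cannot be told apart.

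By class, 46 of the 49 were protein coding in RefSeq, 2 were long noncoding RNAs (LOC100507412 and C9orf173-AS1), and 1, HSPA7, was a transcribed pseudogene. All 49 symbols matched RefSeq, 42 by the current symbol and 7 by an older one. Mean levels with both compounds ran between 0.312 and 17.9 CPM with a median of 0.504 CPM, and 35 of the 49 stayed under 1 CPM. The median member had 44 reads over the 3 wells with both compounds, 8 over the SH4-54 wells, 3 over the DEX wells and 3 over the no-drug wells. The smallest count in a well with both compounds was 5, and 24 members had fewer than 10 reads in at least 1 of those wells. At these counts a single gene's level is known only roughly.

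**Figure D1:**
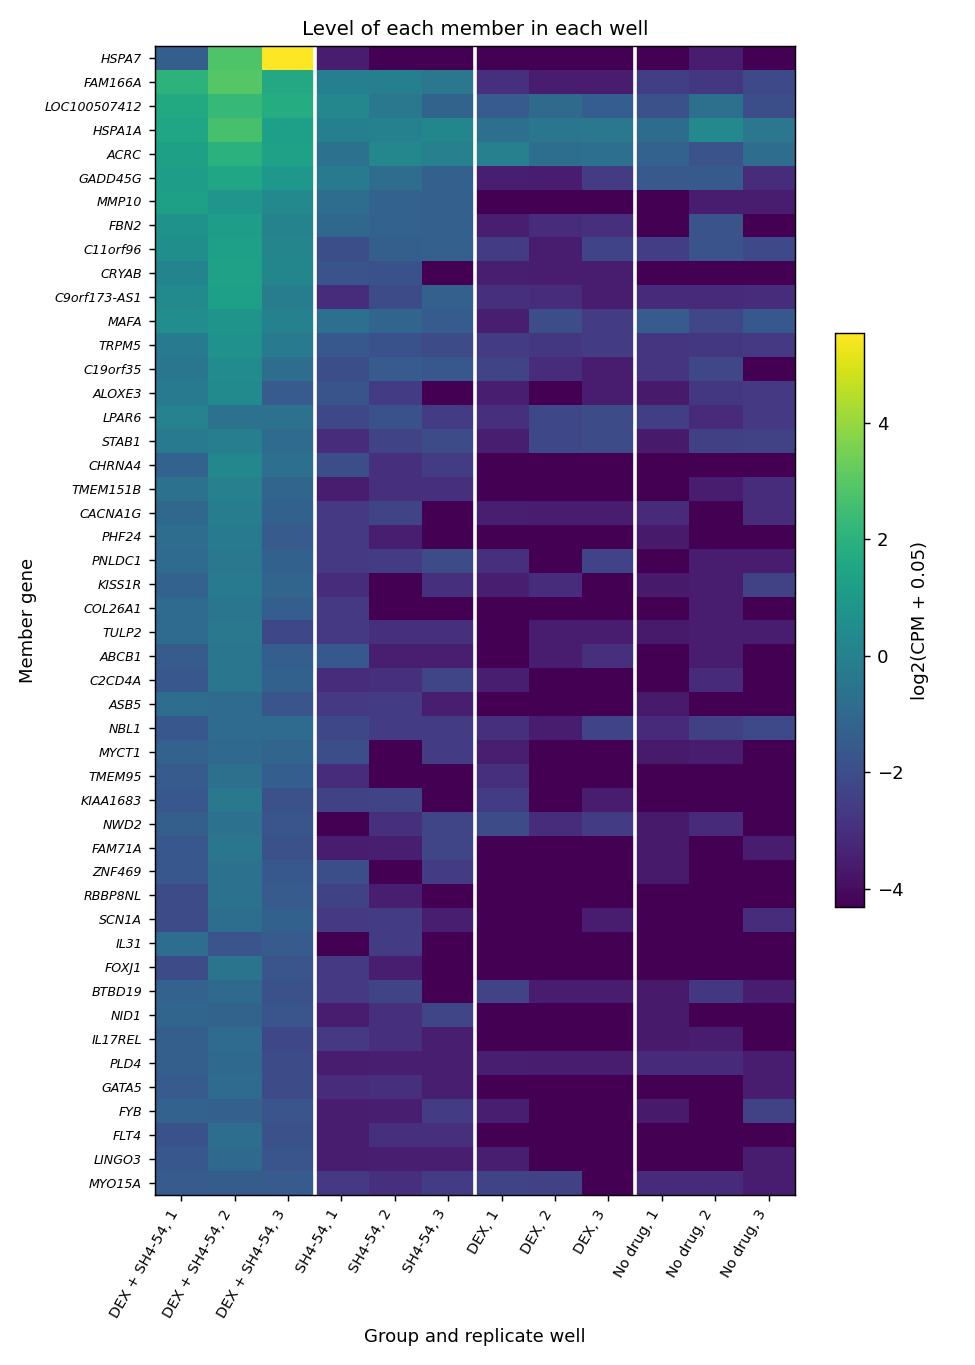
Level of 48 of the 49 genes (rows) in each of the 12 wells (columns), as log2(CPM + 0.05), with the wells that received both compounds at the left. The brightest cells, which are the highest levels, are in the 3 wells with both compounds, as the choice of genes requires, and the SH4-54 wells come next for most rows.

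Summed over the 49 genes, the level was 41.5, 72.1 and 79.9 CPM in the wells with both compounds, 10.8, 9.54 and 8.33 CPM with SH4-54, 3.92, 3.3 and 3.51 CPM with DEX, and 3.2, 4.58 and 3.76 CPM with no drug. HSPA7 alone set the order of the combination wells. Without it the other 48 summed to 41.2, 65.1 and 33.4 CPM with both compounds, and replicate 2 was then the highest. The SH4-54 wells all lay above the DEX and no-drug wells in either sum.

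**Figure D2:**
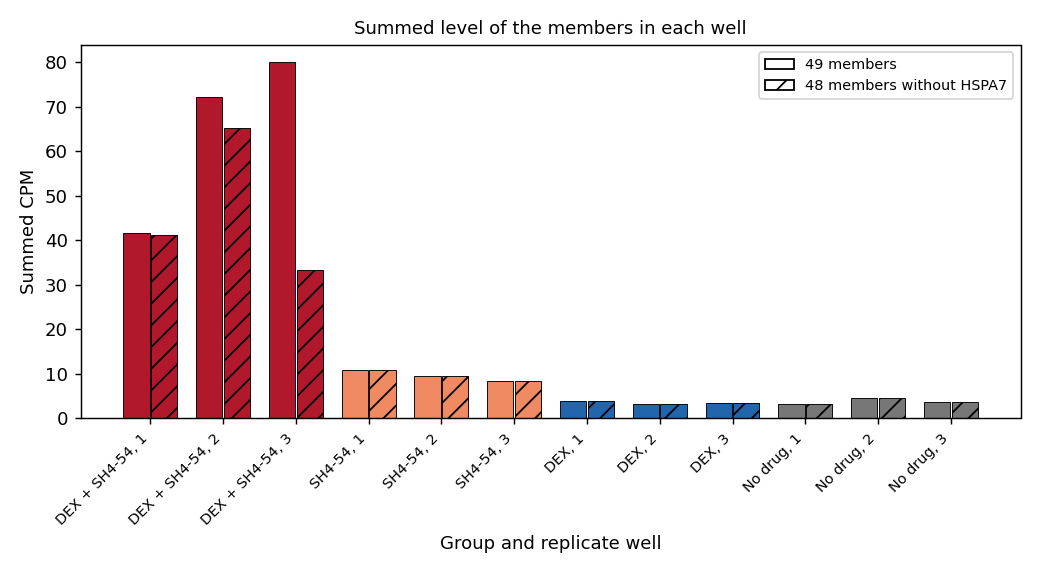
Summed CPM of all 49 genes (plain bars) and of 48 without HSPA7 (hatched bars) in each well. HSPA7 adds most to replicate 3 with both compounds, where the sum was 79.9 CPM with it and 33.4 CPM without it.

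The promoters of 3 members that hold the heat shock or AP-1 letters searched are shown. NID1, PLD4, KIAA1683 and SCN1A hold such letters too and are not shown. Each is the 250 bases before the gene's start in RefSeq on GRCh38.p14, read 5′ to 3′ on the gene's strand. For TMEM95, at chr17:7354906-7355155 on the plus strand, capitals mark 2 overlapping matches to the 3-unit heat shock element, which together hold 4 units. For HSPA1A, at chr6:31815293-31815542 on the plus strand, capitals mark 2 units. For MMP10, at chr11:102780629-102780878 on the minus strand, capitals mark an AP-1 match. A 2-unit heat shock match in the MMP10 promoter, GAACATTC, is left in small letters.
TMEM95: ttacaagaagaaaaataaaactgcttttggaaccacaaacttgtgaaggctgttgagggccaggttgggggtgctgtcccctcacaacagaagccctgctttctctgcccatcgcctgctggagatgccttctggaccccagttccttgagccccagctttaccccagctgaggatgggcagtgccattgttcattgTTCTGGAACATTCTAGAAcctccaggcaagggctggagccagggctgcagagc
HSPA1A: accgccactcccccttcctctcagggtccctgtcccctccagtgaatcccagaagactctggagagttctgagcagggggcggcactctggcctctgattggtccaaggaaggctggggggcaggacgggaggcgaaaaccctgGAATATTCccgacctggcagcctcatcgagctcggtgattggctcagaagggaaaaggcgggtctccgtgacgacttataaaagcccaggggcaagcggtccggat
MMP10: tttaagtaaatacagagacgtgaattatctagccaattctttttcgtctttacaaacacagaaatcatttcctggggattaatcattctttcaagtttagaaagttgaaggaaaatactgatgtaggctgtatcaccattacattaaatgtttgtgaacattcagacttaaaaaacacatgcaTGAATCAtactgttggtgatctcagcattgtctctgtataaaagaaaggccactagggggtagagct

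Chaperones made up 3 members. HSPA1A, the inducible cytosolic HSP70, had 72, 175 and 84 reads with both compounds, 26, 25 and 28 with SH4-54, 15, 20 and 19 with DEX, and 16, 36 and 20 with no drug. Its mean was 3.79 ± 2.17 CPM with both compounds, 0.981 ± 0.101 CPM with SH4-54, 0.655 ± 0.0702 CPM with DEX and 0.805 ± 0.359 CPM with no drug (SD, n = 3 each). Of the 49, it had the most reads in the no-drug wells. CRYAB, a small heat shock protein, had 27, 68 and 39 reads with both compounds and 7, 6 and 0 with SH4-54. It had 1 read in each DEX well and 0 in each no-drug well, so the SH4-54 wells overlapped those of DEX.

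HSPA7, a pseudogene copy of HSPA6, had 9, 196 and 1661 reads with both compounds. Its other 9 wells held 1 read in SH4-54 replicate 1 and 1 in no-drug replicate 2. Replicate 3 carried most of its mean of 17.9 ± 24.9 CPM, whose SD exceeded the mean. HSPA6, an inducible HSP70 that is not a member because its SH4-54 mean was above 1 CPM, had 3868, 13335 and 5569 reads with both compounds. HSPA6 had 740, 722 and 502 reads with SH4-54, 6, 9 and 17 with DEX, and 16, 8 and 13 with no drug. HSPA7 took 0.232% of the reads of both genes in replicate 1 with both compounds (95% Wilson interval 0.122 to 0.441), 1.45% in replicate 2 (1.26 to 1.66) and 23% in replicate 3 (22 to 24). The intervals cover counting error only. The genes are near-identical copies, so how the authors' counting split reads between them is uncertain, and HSPA1A is uncertain likewise beside its copy HSPA1B. HSPA1A and HSPA1B summed to 6.85, 11.4 and 6.82 CPM with both compounds and to 2.19 to 3.6 CPM in the other 9 wells. That pair was thus above the ceiling of 1 CPM in every well, and HSPA1A met the rule only as counted apart from HSPA1B.

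Transcription factors were also among the members. MAFA, a bZIP factor of pancreatic beta cells, had 36, 46 and 34 reads with both compounds, 16, 11 and 8 with SH4-54, 1, 6 and 3 with DEX, and 10, 5 and 8 with no drug. FOXJ1, the regulator of motile cilia, had 5, 18 and 9 reads with both compounds and 3, 1 and 0 with SH4-54. GATA5, a GATA factor of heart and gut, had 8, 14 and 7 with both compounds and 2, 2 and 1 with SH4-54.

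Secreted and matrix genes made up 6 members, led by MMP10. MMP10, the secreted protease stromelysin-2, had 63, 48 and 43 reads with both compounds, 15, 10 and 9 with SH4-54, 0 in each DEX well, and 0, 1 and 1 with no drug. Its mean was 1.77 ± 0.599 CPM with both compounds, 0.417 ± 0.0901 CPM with SH4-54, 0 CPM with DEX and 0.0229 ± 0.0198 CPM with no drug (SD, n = 3 each). The groups with SH4-54 did not overlap those without it. FBN2, the microfibril protein fibrillin-2, had 42, 62 and 36 reads with both compounds, 13, 10 and 9 with SH4-54, 1, 2 and 2 with DEX, and 0, 7 and 0 with no drug. COL26A1, a collagen, had 13, 19 and 12 reads with both compounds against 3, 0 and 0 with SH4-54. IL31, a T cell cytokine linked to itch, had 14, 7 and 11 with both compounds and 0, 3 and 0 with SH4-54. NID1, a basement membrane protein, and NBL1, a secreted BMP antagonist, had means of 0.355 and 0.424 CPM with both compounds.

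Channels, receptors and transporters made up 10 members, with means of at most 1.03 CPM. TRPM5, a cation channel of taste cells, had 20, 43 and 28 reads with both compounds, 8, 6 and 5 with SH4-54, and 3 in every DEX and no-drug well. LPAR6, a lysophosphatidic acid receptor, had 26, 17 and 22 reads with both compounds and 5, 6 and 3 with SH4-54. STAB1, a scavenger receptor of macrophages and sinusoidal endothelium, had 20, 25 and 18 with both compounds and 2, 4 and 5 with SH4-54. CHRNA4, a subunit of neuronal nicotinic receptors, had 10, 33 and 20 with both compounds and 6, 2 and 3 with SH4-54. The other members of the group were CACNA1G and SCN1A, which are voltage-gated channels, KISS1R, the kisspeptin receptor, ABCB1, the efflux pump P-glycoprotein, FLT4, which is VEGF receptor 3, and IL17REL. Their means with both compounds ran between 0.33 CPM for FLT4 and 0.549 CPM for CACNA1G.

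Genes best known for germ cells or cilia made up 7 members. FAM166A, now named CIMIP2A and a protein of ciliary microtubules, had 109, 213 and 109 reads with both compounds, 26, 24 and 18 with SH4-54, 2, 1 and 1 with DEX, and 4, 3 and 5 with no drug. Its mean was 4.95 ± 2.4 CPM with both compounds, 0.838 ± 0.116 CPM with SH4-54, 0.0494 ± 0.0238 CPM with DEX and 0.134 ± 0.0383 CPM with no drug (SD, n = 3 each). The 4 groups of wells did not overlap, with DEX below no drug. ACRC, now named GCNA and a germ cell nuclear protein, had 63, 107 and 87 reads with both compounds, 17, 30 and 24 with SH4-54, 24, 16 and 15 with DEX, and 12, 7 and 15 with no drug. TMEM95, a sperm membrane protein needed for fusion with the egg, had 8, 16 and 12 with both compounds, 2, 0 and 0 with SH4-54, 2, 0 and 0 with DEX, and 0 with no drug. PNLDC1, which trims piRNAs, TULP2, KIAA1683 and FAM71A had means between 0.391 and 0.525 CPM with both compounds. Of 7 germ cell markers looked at separately, 0 were members, and their summed level was 0.266 to 0.861 CPM with both compounds and 0.539 to 0.802 CPM with no drug.

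The noncoding pair was LOC100507412, with 83, 134 and 122 reads with both compounds and 33, 19 and 10 with SH4-54, and C9orf173-AS1, with 33, 64 and 30 with both compounds and 2, 5 and 9 with SH4-54. The remaining 17 members shared no role that sorted them. GADD45G, a stress-responsive growth arrest gene, had 59, 76 and 67 reads with both compounds, 22, 14 and 9 with SH4-54, 1, 1 and 3 with DEX, and 9, 9 and 2 with no drug. C11orf96 had 38, 64 and 38 with both compounds and 6, 9 and 9 with SH4-54. C19orf35 had 18, 36 and 19 reads with both compounds and 6, 8 and 7 with SH4-54. ALOXE3, an epidermal lipoxygenase family member, had 21, 35 and 11 with both compounds and 7, 3 and 0 with SH4-54. The other 13 (TMEM151B, PHF24, C2CD4A, ASB5, MYCT1, NWD2, ZNF469, RBBP8NL, BTBD19, PLD4, FYB, LINGO3 and MYO15A) had means between 0.312 and 0.654 CPM with both compounds. These role groups were made by hand after the values were seen.

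Outside the combination, the members were highest with SH4-54. The highest other group was SH4-54 for 45 of 49, DEX for TMEM95 and NWD2, and no drug for KISS1R and PLD4. As a share of the level with both compounds, the median member stood at 19.3% with SH4-54, 3.87% with DEX and 5.14% with no drug. The rule limited all 3 groups alike to less than the 3-fold bound, and it did not use the order among them.

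**Figure D3:**
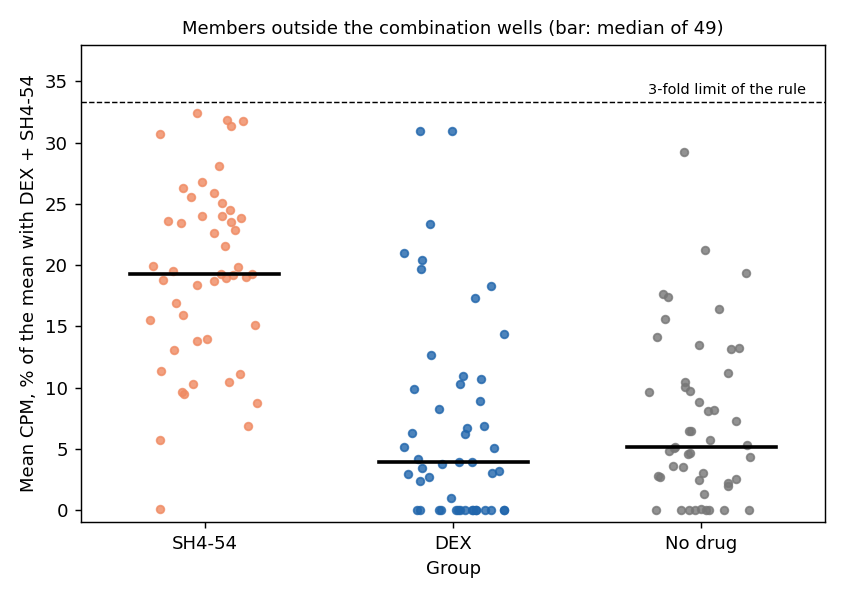
Mean CPM of each of the 49 genes with SH4-54, with DEX and with no drug, as a percent of its mean with both compounds; bars mark medians and the dashed line the 3-fold bound of the rule. The medians were 19.3%, 3.87% and 5.14%.

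The SH4-54 mean was above the no-drug mean for 47 of 49 members, all but KISS1R and PLD4. Among 1378 other genes that were also under 1 CPM in those 3 groups and at 0.3 CPM or more with both compounds, this held for 52.4%. Each SH4-54 well lay above every no-drug well for 19 members, against 6.31% of the same other genes, and each lay below for 0. Among the 19 were FAM166A, ACRC, GADD45G, MMP10, FBN2, TRPM5, C19orf35, CHRNA4, PNLDC1, TULP2, ABCB1, C2CD4A, ASB5, NID1, IL17REL, GATA5, FLT4 and MYO15A. For GADD45G, ABCB1, C2CD4A, ASB5, NID1, IL17REL, GATA5 and MYO15A, the lowest SH4-54 count equalled the highest no-drug count. Those members lay apart only through library size, as ABCB1 did with 1 read against 1. The DEX mean was above the no-drug mean for 15 of 49, against 44.3% of the other genes. Each DEX well lay above every no-drug well for ACRC, CRYAB and NWD2, 3 members against a background of 10.7%, and below for FAM166A. For ACRC and NWD2 the lowest DEX count equalled the highest no-drug count.

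In the fit over all genes, 22 members had enough reads to be tested and 27 did not. With SH4-54 and no drug alone in the fit, 7 members passed the filter, so the other 15 of the 22 passed through wells outside that comparison and their counts support nothing here. MMP10 was higher with SH4-54 than with no drug, with a log2 fold change of 3.99 ± 0.74 (SE) and an adjusted p of 0.03 by edgeR's quasi-likelihood test. It was the only member of the 22 called, against 0.599% of 14184 genes, 38 higher and 47 lower. Leaving out any 1 of the 6 SH4-54 and no-drug wells put MMP10 above the threshold of 0.05, at edgeR adjusted p-values between 0.0584 and 0.121. FAM166A had a log2 fold change of 2.61 ± 0.56 and an edgeR adjusted p of 0.0567. In the fit of these groups alone, edgeR called MMP10 (adjusted p 0.014) and FAM166A (adjusted p 0.00522), 2 of the 7, against 1.12% of 13838 genes. FBN2, HSPA1A, GADD45G, LOC100507412 and ACRC were the 5 of the 7 that did not pass. Of the 7, 6 had an unadjusted p under 0.05 by edgeR in that fit, for which no share over all genes was taken. Without the count filter, edgeR called 2 of the 49, MMP10 and FAM166A, against 0.804% of 21890 genes, and FAM166A had an adjusted p of 0.00164. FAM166A was also called without DEX_SH4-54 replicate 2 (0.00154) and without DEX_SH4-54 replicate 3 (0.00809), wells outside this comparison. With any other single well left out, FAM166A stayed above the threshold of 0.05 by edgeR. Those wells included each of the 6 SH4-54 and no-drug wells, as for MMP10.

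For DEX against no drug, edgeR called 0 of the 22 members and 45.1% of the 14184 genes. Of the members' unadjusted p-values 1, that of GADD45G, was under 0.05. With DEX and no drug alone in the fit, 2 members passed the filter, HSPA1A and ACRC, and edgeR called neither of them and 49.7% of 13835 genes, with 1 of the 2 at an unadjusted p under 0.05. The other 20 had so few reads in these groups that nothing is read from the count of 0. GADD45G, 1 of those 20, had a log2 fold change of -1.77 ± 0.71 and an edgeR adjusted p of 0.0534. DESeq2 called GADD45G at an adjusted p of 0.0491, with a log2 fold change of -1.83. GADD45G passed the filter through wells outside this comparison, so its calls in the filtered fits support nothing here. The replicate block, which kept the filter, gave an edgeR adjusted p of 0.0419. Without the count filter edgeR called 1 of the 49, GADD45G, at an adjusted p of 0.0393, against 28.1% of 21890 genes. The wells of GADD45G overlapped, at 1, 1 and 3 reads with DEX and 9, 9 and 2 with no drug. Leaving out DEX replicate 3, no-drug replicate 3, SH4-54 replicate 1 or SH4-54 replicate 3 also gave GADD45G a call, at edgeR adjusted p-values between 0.0152 and 0.0473. DESeq2 called 1 member and 40.5% of all genes, and gave 2 of the 22 an unadjusted p under 0.05. The members' low counts limit what such a test can call, and a p above the threshold does not show equal levels.

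The 3 wells with both compounds differed among themselves. Replicate 2 was the highest for 41 of the 49, against 45.1% of the same 1378 other genes. HSPA7 and NBL1 were highest in replicate 3, and MMP10, LPAR6, ASB5, IL31, NID1 and FYB in replicate 1. The level in replicate 2 over the mean of the other wells with both compounds had a median of 1.83, with a range of 0.301 to 2.93. HSPA6 was also highest there, at 13335 reads, against 3868 in replicate 1 and 5569 in replicate 3. Without replicate 2, the rule found 32 genes, of which 31 were among the 49.

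**Figure D4:**
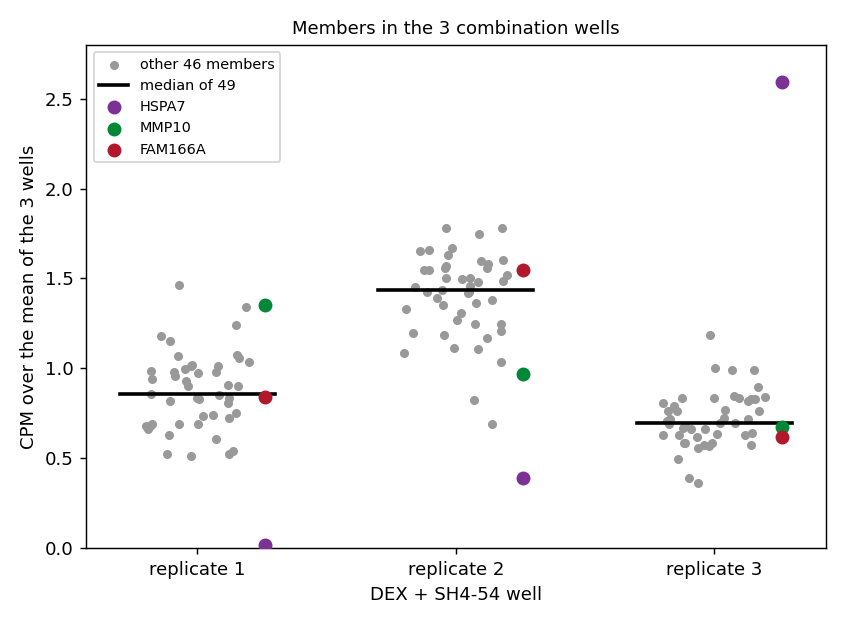
CPM of each gene in each well with both compounds, divided by its mean over the 3 wells; bars mark medians of the 49 and coloured points HSPA7, MMP10 and FAM166A. Most genes sit highest in replicate 2, whereas HSPA7 sits highest in replicate 3 and MMP10 in replicate 1.

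By position, 48 members could be placed in the RefSeq gene order. Adjacent to another member on the same strand were 6 of them, the pairs C19orf35 and LINGO3, RBBP8NL and GATA5, and FAM166A and C9orf173-AS1. No share over other sets of genes was taken for these 6, so whether members cluster was not tested. FAM166A and C9orf173-AS1 overlap on the same strand, so reads between them cannot be told apart. A further 3 members lay beside a gene at least 2-fold higher with both compounds than with no drug, against 2.13% of 25146 other genes. They were FAM71A beside ATF3, ALOXE3 beside HES7, and HSPA1A beside HSPA1B. In edgeR's test of both compounds against no drug, ATF3 rose by a log2 fold change of 1.85 ± 0.11 (adjusted p 3.80e-09), HES7 by 1.87 ± 0.34 (adjusted p 0.000412) and HSPA1B by 1.07 ± 0.16 (adjusted p 8.76e-05).

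Promoters of 250 bases before and 50 after the start were held for 31 members and 27305 genes in all. The 2-unit heat shock letters GAANNTTC or TTCNNGAA, on either strand, were in 6 of 31 members (19.4%), NID1, MMP10, PLD4, TMEM95, KIAA1683 and HSPA1A, and in 13.7% of all promoters. A 3-unit element, which contains the 2-unit letters, was in TMEM95 alone (3.23%) and in 0.487% of all. AP-1 letters TGANTCA were in MMP10, KIAA1683 and SCN1A (9.68%), against 7.76%, and TATAAA in 7 (22.6%), against 12%. The STAT letters TTCNNNGAA were in LPAR6 (3.23%) against 7.88%, and the glucocorticoid receptor letters ACANNNTGT in 2 (6.45%) against 5.45%. The cAMP element letters TGACGTCA were in 0 members against 1.98%, and the shorter letters TGACG in 4 (12.9%) against 25%. A match is a string of letters and not a measured site.

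A set of 3 gene lists places the members beside their relatives, over 14184 genes of which 21.1% were called higher and 21.6% lower with both compounds than with no drug by edgeR. Of 36 heat shock genes, HSPA7, HSPA1A and CRYAB were members. Of 26 others tested, 13 rose, 4 fell and 9 did not pass, with a median log2 fold change of 0.13 against 0.00431 over all genes. HSPA6 had a log2 fold change of 9.31 ± 0.61 (edgeR adjusted p 1.35e-08), and the co-chaperones BAG3 and DNAJB1 by 0.63 ± 0.059 and 0.67 ± 0.063. The list of 32 immediate-early genes was made without EGR and NR4A genes, and GADD45G of it was a member. EGR2, EGR3 and NR4A3 had met the rule before their symbols were set aside. Of 30 others tested in the list, 15 rose, 7 fell and 8 did not pass (median 0.28). DUSP1, a phosphatase of MAP kinases, rose by 1.89 ± 0.048, GADD45B by 1.17 ± 0.062 and MYC by 0.70 ± 0.034 on the log2 scale. Wells with DEX alone were also above those with no drug, with DUSP1 at 454 CPM with both compounds, 128 with SH4-54, 411 with DEX and 124 with no drug. MYC had 149 CPM with both compounds, 94.2 with SH4-54, 154 with DEX and 93.5 with no drug, and GADD45B had 129 CPM with both compounds, 65.1 with SH4-54, 93 with DEX and 58.1 with no drug. The third list held 14 genes, metallothioneins, which bind zinc and copper, and the zinc exporter SLC30A1. Of these 14, 0 were members, and of 7 tested 6 rose and 1 fell (median 2.3). MT1G rose by 2.75 ± 0.097 and MT2A by 2.40 ± 0.043 on the log2 scale. Wells with DEX alone were also high, with MT2A at 756 CPM with both compounds, 181 with SH4-54, 792 with DEX and 146 with no drug, and MT1G at 48.8 CPM with both compounds, 7.94 with SH4-54, 52.5 with DEX and 7.38 with no drug.

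At the edges of the rule, MYO15A at 0.312 CPM and LINGO3 at 0.328 CPM were the lowest members, and NPPC at 0.296 CPM and SPATA4 at 0.287 CPM fell just outside. MAFA at 3.09-fold and NBL1 at 3.15-fold were nearest inside the fold limit, and PYGM at 2.78-fold and AATK at 2.77-fold nearest outside. On the ceiling of 1 CPM, HSPA1A at 0.981 CPM and ACRC at 0.888 CPM were inside, and MMP3 at 1.79 CPM and SNAI1 at 2.11 CPM outside.

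Totals per well were 26280158 to 35758236 reads with both compounds, 25577213 to 28864061 with SH4-54, 26040956 to 29426776 with DEX and 28439725 to 31552360 with no drug. VIM, CD44, AXL, CAV1 and ZEB1, which mark this mesenchymal line, were expressed in all groups, and ESR1 and PGR had group means of at most 0.37 CPM. CDH1, an epithelial cadherin listed with them as low or absent in this line, had means of 7.98 CPM with both compounds, 10 CPM with SH4-54, 14 CPM with DEX and 11.6 CPM with no drug. Of the markers of other cell types, 0 were members. The 7 muscle markers summed to 1.96 to 29.8 CPM with both compounds, 23 to 25.6 CPM with SH4-54, 0.486 to 5.17 CPM with DEX and 2.85 to 5.59 CPM with no drug. Of these 7, ACTA1 alone reached a group mean of 0.3 CPM. The part of the muscle markers in the members' levels was not tested.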

How the data were processed

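RNA of 12 wells was sequenced. The authors deposited raw read counts, 1 row a gene symbol. HISAT2 2.1.0, SAMtools and, for counting, featureCounts 1.5.1 are named per the submitters' processing notes, as are hg19 and GRCh37. The libraries were stranded and ribosomal RNA was removed, per the labels' protocols. Annotation, strand option and treatment of multi-mapping reads: not given in the sources used here. Hence overlapping genes and near-identical copies are uncertain. Groups came from the sample titles, since another label field writes SH4-54 differently.

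CPM used total column counts. Tests used edgeR 4.0.16 in R 4.3.3 (filterByExpr, TMM, quasi-likelihood test, all 12 libraries, Benjamini-Hochberg over 14184 genes, threshold 0.05), tested on simulated data. The SE was obtained by dividing the size of the log2 fold change by the root of F. DESeq2 1.42.0 was an alternative, with filters, a replicate block, the compared groups alone and each library left out. Wells of a group always differed by more than counting noise (lowest ratio of chi-square to its degrees of freedom 4.18).

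The members, gene lists and tests were chosen with earlier results of these data known. Named members were the 15 highest with both compounds, those called, those nearest each threshold, those in a gene list, adjacent to another or with a 3-unit element, and up to 3 per class, with HSPA6 and up to 3 genes per list by p. Members outside that rule, such as those of the role groups, and the neighbouring genes were named after their values were seen. The genome and RefSeq tables in hand were GRCh38, so they served for names, gene order and promoters. Of the members, 1 that the rule takes is counted in all totals and is not reported by name here.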

Additional observations from a re-analysis of the deposited data

How the results depend on the processing

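The number of genes that met the rule, 49, became 25 with a mean of at least 0.5 CPM and 27 with at least 5-fold, and lay between 32 (without DEX_SH4-54 replicate 2) and 70 with each well left out. Members called with SH4-54 against no drug, 1, became 2 without the count filter, 2 with the replicate block and 2 with the compared groups alone, and 0 to 2 with each well left out. DESeq2 gave none of the 22 an adjusted p there. Members called with DEX, 0, became 1 with DESeq2, 1 without the count filter and 1 with the replicate block. With each well left out the count was 0 to 1. Over all genes, DESeq2 called 40.5% for DEX, and edgeR without the count filter called 28.1% of 21890. No such share was taken with the replicate block. The members' low counts limit what these tests can call. Genes called with SH4-54, 85, became 185 with DESeq2, 176 without the filter, 155 with the compared groups alone and 68 with the block, and 26 to 163 with each well left out. That count moved by over 1.5 times without each no-drug well, without SH4-54 replicates 1 and 2, and without DEX_SH4-54 replicates 2 and 3. Members with each SH4-54 well above every no-drug well, 19, became 21 to 31 with a well left out, the highest without SH4-54 replicate 3. Leaving out a well of these groups can only keep or raise that count, so the range does not show that it is steady. Same-numbered wells had correlations of deviations between -0.097 and 0.093 over 18 pairs, and the main fit used no pairing. These correlations were taken over all genes with enough reads, so a pairing in some genes was not tested. Counts of a few reads per well limit every value of a single member. The causes were not tested.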
